A study of Rattus norvegicus with 32 samples.

Results

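The 10 genes described here store iron in ferritin, release it again, carry it out of the cell or free it from heme. They were chosen by name: the rows of the deposited count table whose gene name is Fth1, Ftl1, Ncoa4, Pcbp1, Pcbp2, Slc40a1, Heph, Cp, Hfe or Hmox1. Of the 10 names 9 had a row, and all 9 passed the filter on low counts, among 15439 genes tested of 32883 in the table. Pcbp1 was not analysed here. Slc40a1 had 2 rows, of which ENSRNOG00000003872 was tested and ENSRNOG00000049995, with 1 read in 1 of 32 libraries, was not.

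The libraries are RNA sequencing of 1 hippocampus from each of 32 wild-type rat pups in 4 groups. ID insulin (8 pups) and ID control (9 pups) had dams on an iron-deficient diet, and IS insulin (7 pups) and IS control (8 pups) came from iron-sufficient dams. The deficient diet held 3 to 6 ppm iron and lasted from gestational day 3 to postnatal day 7, and insulin was given through the nose from postnatal day 8 to 21. The labels place collection on postnatal day 7 or 21 without saying which applies to a sample, so collection was on day 21 for both insulin groups and is not settled for the control groups. They give neither strain, sex nor litter, and do not say what the control pups received in place of insulin. Pups of a group may be littermates, and a p-value here measures pup-to-pup spread alone.

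Ferritin is a hollow shell of heavy and light chains that holds iron in a mineral form. NCOA4 binds the heavy chain and delivers ferritin to lysosomes, where its iron is freed, and NCOA4 protein is itself destroyed when cell iron is high. Ferroportin is the only known iron exporter of mammalian cells and works with copper ferroxidases, while heme oxygenase opens the heme ring and frees its iron. Ferritin synthesis and ferroportin are controlled to a large extent at the level of translation and protein turnover, which counts of mRNA reads do not measure.

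Of the 9 genes tested, 1 was called, in 1 of the 6 comparisons. Of all genes, 3.82% were called in that comparison and 0.123% to 3.35% in the others. Ncoa4, the ferritin receptor for autophagy, was higher in ID insulin than in ID control, by 14.6%. Ferritin, the chaperone Pcbp2, the exporter Slc40a1, the ferroxidases Heph and Cp, Hfe and Hmox1 passed the test in no comparison. Changes were called at an adjusted p under 0.05 with edgeR's quasi-likelihood test and Benjamini-Hochberg adjustment over all genes tested.

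Total counts per library were 19619345 to 28062630. Of 9 hippocampal neuron markers all were found in every library, though Spink8 only at 0.0462 to 0.507 CPM (counts per 1000000 reads, with library totals scaled by the TMM method) and Dsp at 1.36 to 6.41 CPM. Prox1 of dentate granule cells was at 61.8 to 134.7 CPM and Wfs1 of CA1 pyramidal neurons at 215 to 450.4 CPM in the 32 libraries, and Wfs1 was called lower in ID insulin than in ID control. ID insulin replicate 3 stood apart, with a chi-square per gene of 38.5 to 85.1 against its group, where other pairs within a group reached at most 30.4. Genes of neighbouring tissue differed between groups and are given beside the results they touch. In bulk hippocampus, fewer cells of a type and less RNA per cell cannot be told apart. The first number of the sample titles differs between all groups, being 73 for ID insulin, 69 or 70 for ID control, 72 for IS insulin and 71 for IS control. What it stands for and the group cannot be told apart.

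The promoter of Ncoa4 is shown because Ncoa4 is the 1 gene of the set that was called in a comparison. These are the 250 bases before the gene start in the rat assembly GRCr8, from RefSeq, at chr16:7401541-7401790 on the plus strand. Capitals mark ACGTG, the core of the hypoxia response element, and TGACNNNGC, the antioxidant response element through which NRF2 acts.
Ncoa4: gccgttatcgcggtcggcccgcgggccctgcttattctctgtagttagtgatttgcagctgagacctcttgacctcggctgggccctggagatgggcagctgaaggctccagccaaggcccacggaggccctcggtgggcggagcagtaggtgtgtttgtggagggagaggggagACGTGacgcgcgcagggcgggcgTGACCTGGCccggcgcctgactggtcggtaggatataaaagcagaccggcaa
The matches start 75 and 52 bases before the gene start, and both strands were searched. ACGTG was held by 16.6% and TGACNNNGC by 10.1% of 33469 rat promoter windows of this length. The E-box CACGTG of lysosomal gene promoters, which contains ACGTG, was not in the Ncoa4 window and was held by 5.59% of all windows. Of the 10 genes 6 had a window in the RefSeq table, and apart from Ncoa4 only Pcbp1 held any of these motifs. Its window had 1 CACGTG, which reads as ACGTG on both strands, and 1 further ACGTG. A match is a description of letters, not a site of binding.

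Ncoa4 (ENSRNOG00000019768), the cargo receptor that carries ferritin to lysosomes, was well covered, with 2816 to 4614 reads per library. It stood at 153 CPM in the lowest, 159 in the median and 175 in the highest of the 8 ID insulin pups. In the 9 ID control pups the lowest was 131 CPM, the median 142 and the highest 150.5. No ID control pup reached the lowest ID insulin pup, and the share of all genes that separate in this way was not counted.

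The mean was 161 ± 8.18 CPM in ID insulin (SD, n = 8) and 141 ± 6.48 CPM in ID control (SD, n = 9). The log2 fold change of ID insulin over ID control was 0.20 (SE 0.04, 95% interval 0.12 to 0.28), with an adjusted p of 0.00618 by edgeR's quasi-likelihood test. Among all genes tested, 3.82% were called in this comparison. It was the 1 of 9 iron genes called, and it was higher.

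Both iron-sufficient groups overlapped ID insulin. Ncoa4 stood at 153, 168 and 182.5 CPM in the lowest, median and highest of the IS insulin pups. The IS control pups held 141 CPM at the lowest, 153.5 at the median and 170.0 at the highest. ID control was therefore the group with the lowest Ncoa4, and 6 of 8 IS control pups lay above all 9 ID control pups.

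Relative to IS control, ID control was lower in Ncoa4 by a log2 fold change of -0.15 (SE 0.04, 95% interval -0.23 to -0.07). Its unadjusted p was 0.000575 and its adjusted p 0.102 by edgeR's quasi-likelihood test, so it was not called. Of all genes 0.291% were called in this comparison, and of the 9 iron genes 0 were. An unadjusted p under 0.05 was found for 3 of the 9 and for 11.9% of all genes. The same difference was called by DESeq2 (adjusted p = 0.0244) and by limma voom with library quality weights (adjusted p = 0.0322). In edgeR it was called with the Y-linked genes as a covariate (adjusted p = 0.0212) or the second title number as a block (adjusted p = 0.00676). Of 2 tested Y-linked genes 0 were called between these groups. Their median log2 fold change was -0.47 here and 0.59 between ID insulin and ID control. Whether sex differed between the groups was not tested. The Ncoa4 difference between ID control and IS control stayed uncalled in 9 of 13 alternatives. It also stayed uncalled in all 32 fits with a library left out (adjusted p of 0.0598 to 0.171, edgeR). With ID control title number 70 alone it was -0.12 (adjusted p = 0.434, edgeR). With number 69 alone it was -0.19 (adjusted p = 0.0957, edgeR). The diet difference of Ncoa4 was thus not called in most fits, and the side of the threshold it fell on depended on the method.

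**Figure D1:**
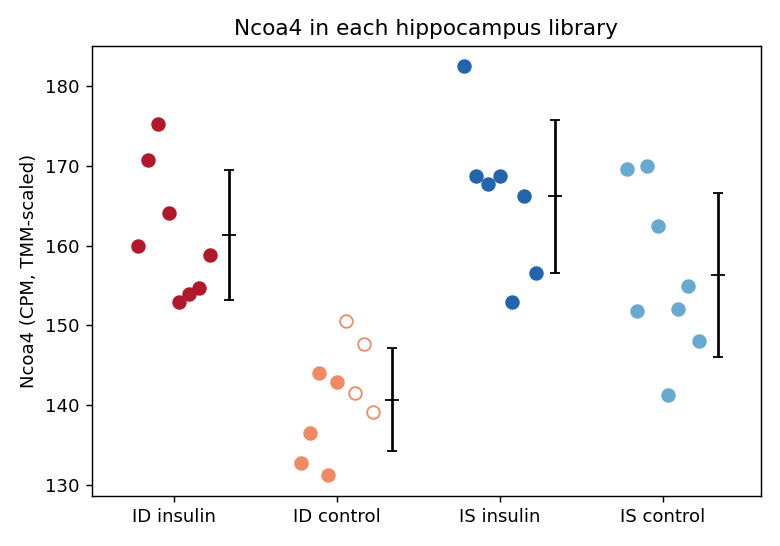
Ncoa4 in CPM (vertical axis, which does not start at 0) in each hippocampus library of the 4 groups; each circle is 1 pup, open circles are ID control pups of title number 70, and the bar beside each group is the mean ± SD. The 8 ID insulin pups sit between 153 and 175 CPM and the 9 ID control pups between 131 and 150.5 CPM. IS insulin and IS control overlap.

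Insulin in the iron-sufficient pups gave a smaller value of the same sign. Ncoa4 averaged 166 ± 9.57 CPM in IS insulin (SD, n = 7) and 156 ± 10.3 CPM in IS control (SD, n = 8), a log2 fold change of 0.09 (95% interval 0.00 to 0.18, adjusted p = 0.292, edgeR). Here 0.123% of all genes and 0 of the 9 iron genes were called, and 1 of the 9 had an unadjusted p under 0.05, as had 16.3% of all genes. The difference between the insulin responses of the 2 diets was itself 0.11 (95% interval -0.01 to 0.23) for Ncoa4, with an adjusted p of 0.339 by edgeR's interaction test. A larger insulin response in iron-deficient pups was therefore not shown for Ncoa4.

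The interaction was called for 0.939% of all genes and for 0 of the 9 iron genes, and an unadjusted p under 0.05 was found for 17.1% of all genes and 1 of the 9. Between ID insulin and IS control, Ncoa4 had a log2 fold change of 0.05 (95% interval -0.04 to 0.13, adjusted p = 0.565, edgeR). In that comparison 3.35% of all genes and 0 of the 9 were called, and 20.3% of all genes and 2 of the 9 had an unadjusted p under 0.05. Between ID insulin and IS insulin 2.45% of all genes and 0 of the 9 were called, and 20.1% of all genes and 0 of the 9 had an unadjusted p under 0.05. DESeq2 and limma voom also called 0 of the 9 in the interaction and in the comparisons of ID insulin with either iron-sufficient group and of IS insulin with IS control. These comparisons share their control or insulin libraries, so they are not separate observations.

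The Ncoa4 call between ID insulin and ID control was kept in the fits that left out any 1 library, with log2 fold changes of 0.18 to 0.21 and adjusted p of 0.00433 to 0.0127. It was lost against the 4 ID control pups of title number 70 alone (0.15, SE 0.05, adjusted p = 0.122, edgeR). It was also lost with markers of choroid plexus, meninges, blood and thalamus as covariates (0.26, SE 0.06, adjusted p = 0.0888, edgeR). In that fit the value and its SE were both larger than without covariates (0.20, SE 0.04). Within ID control, pups of title number 70 averaged 145 ± 5.30 CPM of Ncoa4 (SD, n = 4) and those of number 69 averaged 137.5 ± 5.80 CPM (SD, n = 5). That difference was 0.07 on the log2 scale with an adjusted p of 0.697 by edgeR, and 0 of the 9 iron genes were called between the title numbers, against 0.22% of all genes, also at 0 with DESeq2. An unadjusted p under 0.05 was found there for 0 of the 9 and for 8.92% of all genes.

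The labels do not settle the collection day of the control pups. From the labels, insulin and age cannot be told apart in the comparisons of insulin with control. The summed CPM of 14 mature oligodendrocyte markers had a median of 20570 (range 18020 to 32260) in ID insulin and 19690 (15560 to 23980) in ID control. It was 22300 (20180 to 28940) in IS insulin and 21850 (17700 to 24700) in IS control. Whether age differed between the groups was not tested. Markers of other cell types and tissues also differed between ID insulin and ID control. Of 9 tested meninges and fibroblast markers 5 were lower, of 14 endothelial and mural cell markers 3 were lower, and of 7 blood markers 4 were higher. Of 8 hippocampal neuron markers 2 were lower (log2 fold change -0.32 for Nrgn and -0.38 for Wfs1), and of 10 thalamus and habenula markers 2 were higher and 1 lower. Of 14 microglia and macrophage markers 1 was lower, of 11 astrocyte markers 1 was lower, of 14 oligodendrocyte markers 1 was higher and 1 lower, and of 14 choroid plexus markers 0 were called. The summed CPM of 10 meninges and fibroblast markers had a median of 587 (range 363 to 655) in ID insulin and 726 (range 609 to 994) in ID control. The summed CPM of 7 blood markers had a median of 2719 (range 1052 to 4617) in ID insulin and 1382 (range 1063 to 2491) in ID control. No marker of the meninges or blood lists was at 0 in a whole group. Apart from the fit with choroid plexus, meninges, blood and thalamus covariates, the part of these differences in the Ncoa4 result was not tested.

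Fth1 (ENSRNOG00000022619), the heavy chain of ferritin, which carries its ferroxidase activity, had 15068 to 25965 reads per library. It stood at 672, 802 and 1019 CPM in the lowest, median and highest ID insulin pups, and at 732, 837 and 994 CPM in those of ID control. IS insulin spanned 774, 838.5 and 905 CPM, and IS control 680, 810 and 878 CPM. The 4 groups overlapped throughout, and 4 of 9 ID control pups lay above all IS control pups.

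The means of Fth1 were 806 ± 106 CPM in ID insulin (n = 8), 868 ± 92.7 in ID control (n = 9), 836 ± 46.7 for IS insulin (n = 7) and 792 ± 59.7 for IS control (n = 8; SD in each). The log2 fold change of Fth1 was 0.13 between ID control and IS control (95% interval -0.004 to 0.27, adjusted p = 0.435, edgeR). Between ID insulin and ID control it was -0.11 (95% interval -0.24 to 0.03, adjusted p = 0.388, edgeR). Both intervals leave out a change of Fth1 mRNA of 1 log2 unit in either direction.

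The light chain is uncertain in this table. The row named Ftl1 (ENSRNOG00000031506) held 8 to 32 reads per library, or 0.906 ± 0.353 CPM in ID insulin (n = 8), 0.811 ± 0.196 in ID control (n = 9), 0.944 ± 0.271 for IS insulin (n = 7) and 0.899 ± 0.341 for IS control (n = 8; SD in each). A row named LOC100360087 (ENSRNOG00000020843), to which the RefSeq table gives Ftl1 as a synonym, held 2339 to 3799 reads. That row was added after the table had been seen, and how reads were shared between near-identical copies is not given in the sources used here.

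LOC100360087 stood at 124 ± 19.5 CPM in ID insulin (n = 8), 131.5 ± 7.50 in ID control (n = 9), 128 ± 9.06 for IS insulin (n = 7) and 127.5 ± 7.37 for IS control (n = 8; SD in each). The ID insulin pups were spread more widely than the others, from 105 to 167 CPM around a median of 119, with ID insulin replicate 3 at the top and 5 of 8 pups below all ID control pups. The log2 fold change of ID insulin over ID control was -0.09 (SE 0.06, adjusted p = 0.434, edgeR) with all libraries. Without ID insulin replicate 3 it was -0.17 with an adjusted p of 0.0428, so in edgeR the call of this row hangs on 1 library. With all libraries limma voom called it lower (-0.16, adjusted p = 0.0495), so the method matters too. The Ftl1 row was called in no comparison.

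Pcbp2 (ENSRNOG00000036852), a poly(rC)-binding protein that also acts as a chaperone handing iron to ferritin, varied least of the 9 genes from pup to pup, with a coefficient of variation of 4.17% over the 32 libraries. The lowest, median and highest pups stood at 121, 131 and 136 CPM in ID insulin and at 124, 136 and 139 CPM in ID control. In IS insulin they stood at 124, 135 and 138 CPM, and in IS control at 122, 127 and 135 CPM. ID control and IS insulin were thus the higher groups and ID insulin and IS control the lower, with overlap between all of them.

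For Pcbp2 the log2 fold change was 0.07 between ID control and IS control (95% interval 0.01 to 0.14, adjusted p = 0.316, edgeR). It was -0.06 between ID insulin and ID control (95% interval -0.12 to 0.00, adjusted p = 0.284, edgeR). Between IS insulin and IS control it was 0.06 (95% interval -0.01 to 0.13, adjusted p = 0.349, edgeR). The interaction of Pcbp2 was -0.12 (95% interval -0.21 to -0.03) with an unadjusted p of 0.0111 and an adjusted p of 0.155 by edgeR, so the opposite signs in the 2 diets did not pass the test.

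**Figure D2:**
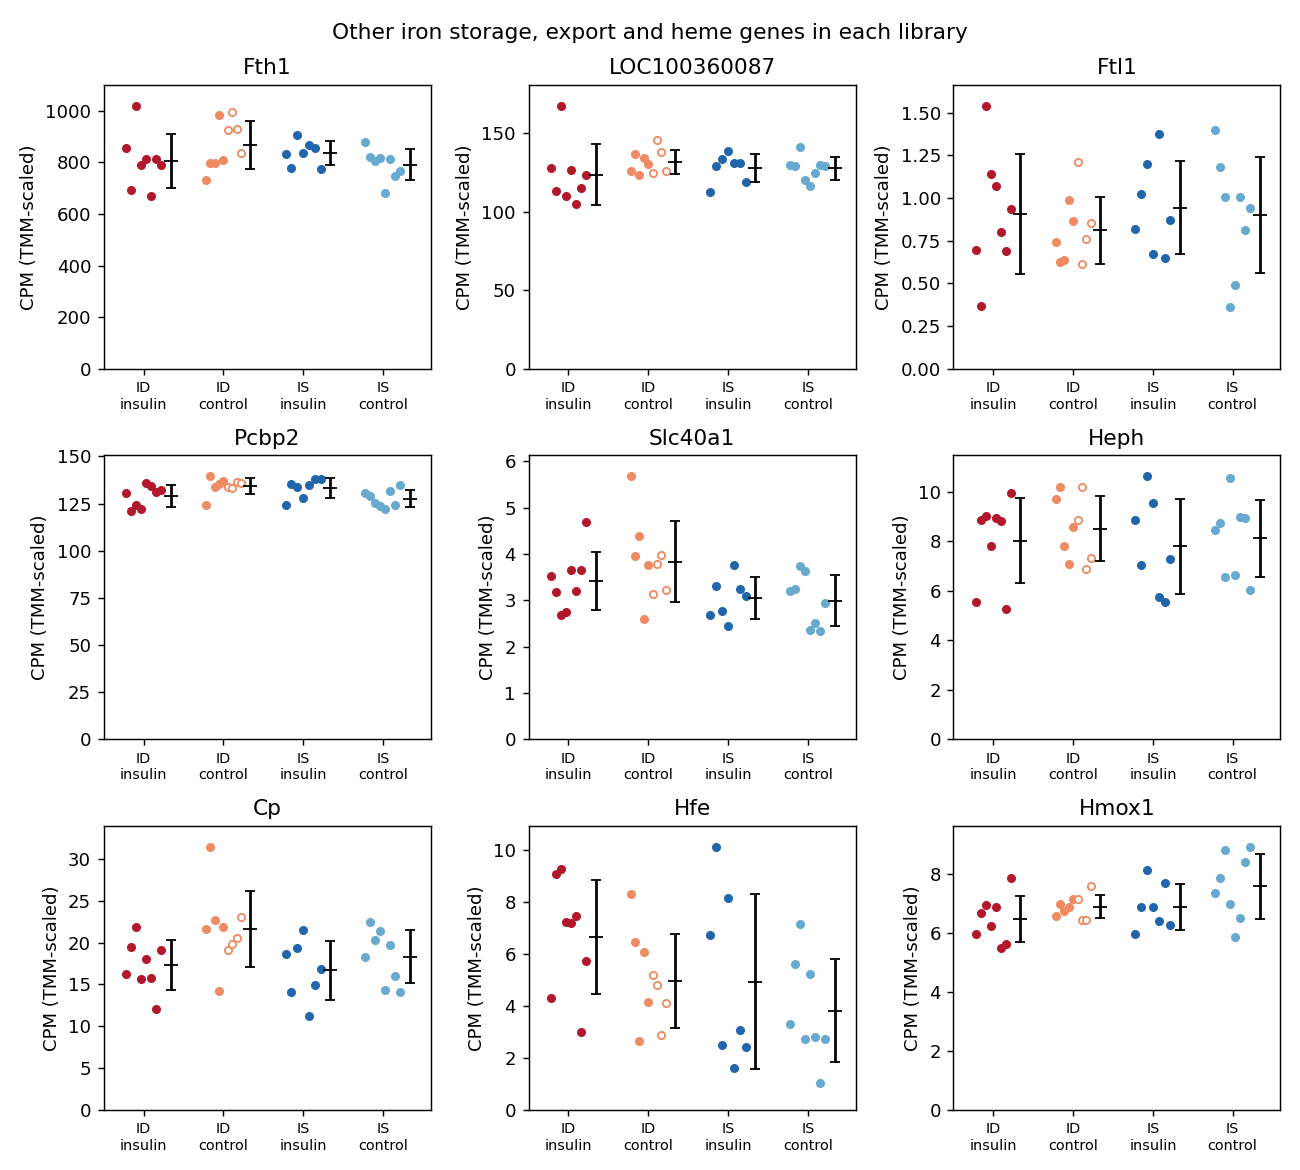
CPM (vertical axes, from 0) of 8 further iron genes and of the row LOC100360087 in each library of the 4 groups; each circle is 1 pup, open circles are ID control pups of title number 70, and bars are the mean ± SD. The groups overlap in every panel, and the spread is narrow for Pcbp2 (coefficient of variation 4.17%) and wide for Hfe (48.3%).

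Slc40a1 (ENSRNOG00000003872) encodes ferroportin, the iron exporter, which in brain is found on endothelial cells among others. It was covered by 49 to 122 reads per library. The lowest, median and highest pups stood at 2.69, 3.36 and 4.68 CPM in ID insulin and at 2.61, 3.79 and 5.68 CPM in ID control. In IS insulin they stood at 2.44, 3.09 and 3.77 CPM, and in IS control at 2.33, 3.08 and 3.74 CPM. The ID control pups reached highest, with 6 of 9 above all IS control pups.

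Slc40a1 averaged 3.84 ± 0.874 CPM in ID control (SD, n = 9) and 3.00 ± 0.551 CPM in IS control (SD, n = 8). The log2 fold change was 0.34 (SE 0.13, 95% interval 0.06 to 0.61), with an unadjusted p of 0.0164 and an adjusted p of 0.292 by edgeR. ID insulin, at 3.42 ± 0.635 CPM (SD, n = 8), lay between them, with -0.16 relative to ID control (95% interval -0.42 to 0.11, adjusted p = 0.535, edgeR), and -0.24 to -0.07 with 1 library left out. IS insulin averaged 3.05 ± 0.448 CPM (SD, n = 7).

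Slc40a1 varied with the vessel markers of the libraries. After subtracting group means, its log2 CPM correlated with the log2 summed CPM of 14 endothelial and mural cell markers at Pearson's r = 0.575 and Spearman's rho = 0.642 over 32 libraries, with an adjusted p of 0.0039 for r and 0.00427 for rho by a permutation test. Without the 2 libraries farthest from the median of the markers, r was 0.525. Within groups, r was 0.838 in ID insulin, 0.205 in ID control, 0.468 for IS insulin and 0.721 for IS control.

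That endothelial and mural sum had a median of 639 CPM (range 473 to 705) in ID insulin, 710.5 (662 to 754) in ID control, 649 (570 to 684) for IS insulin and 612 (467 to 680) for IS control. ID control was thus the highest group and IS control the lowest in the markers as in Slc40a1. IS insulin lay above ID insulin in the markers and below it in Slc40a1. The genes most like Slc40a1 after subtracting group means were Cobll1 (r = 0.716), Dipk2b (0.613) and Sik1 (0.606), over the 32 libraries. What part vessel content had in the Slc40a1 values was not tested.

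Hephaestin and ceruloplasmin are the copper ferroxidases that oxidise iron as ferroportin releases it, and in brain a membrane-anchored form of ceruloplasmin is made by astrocytes. Heph (ENSRNOG00000012294) stood at 5.25, 8.85 and 9.95 CPM in the lowest, median and highest ID insulin pups and at 6.90, 8.57 and 10.2 CPM in those of ID control. In IS insulin it stood at 5.55, 7.28 and 10.6 CPM and in IS control at 6.04, 8.62 and 10.5 CPM. All groups overlapped, and no Heph difference in the 3 comparisons of a group with its control exceeded its own standard error.

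Cp (ENSRNOG00000011913) stood at 12.1, 17.2 and 21.9 CPM in the lowest, median and highest ID insulin pups and at 14.2, 21.6 and 31.4 CPM in those of ID control. In IS insulin it stood at 11.3, 16.8 and 21.5 CPM, and in IS control at 14.1, 19.0 and 22.4 CPM. The groups overlapped, and 3 of 9 ID control pups lay above all ID insulin pups.

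Cp averaged 17.3 ± 3.02 CPM in ID insulin (SD, n = 8) and 21.6 ± 4.55 CPM in ID control (SD, n = 9), a log2 fold change of -0.32 (SE 0.13, 95% interval -0.58 to -0.06). Its unadjusted p was 0.0177 and its adjusted p 0.157 by edgeR's quasi-likelihood test, so it was not called. With choroid plexus, meninges, blood and thalamus markers as covariates this value was -0.003 (SE 0.136). Between ID control and IS control the log2 fold change was 0.23 (95% interval -0.03 to 0.50, adjusted p = 0.479, edgeR), and it was -0.03 (SE 0.10) with those covariates.

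Cp varied from pup to pup with genes of the meninges. Its log2 CPM correlated with the log2 summed CPM of 10 meninges and fibroblast markers at r = 0.708 and rho = 0.67 over 32 libraries after subtracting group means, with an adjusted p of 0.00225 for r and 0.00427 for rho by a permutation test. Without the 2 farthest libraries r was 0.677. Within groups r was 0.85 in ID insulin, 0.696 in ID control, 0.706 for IS insulin and 0.655 for IS control.

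With microglia and macrophage markers the r of Cp was 0.605 (rho 0.70, adjusted p = 0.0104 for r, permutation test), and that of Heph was 0.574 (rho 0.625, adjusted p = 0.0347 for r, permutation test). Both ferroxidases also correlated with each other, at r = 0.676 and rho = 0.673 (adjusted p = 0.0036 for r, permutation test). With hippocampal neuron markers r was -0.552 for Heph and -0.516 for Cp, at adjusted p of 0.0374 and 0.033 by permutation test. That marker sum is mostly Nrgn (median 1185 CPM) and Camk2a (1163 CPM), with Wfs1 next at 364 CPM. The genes most like Cp were Stab1 (r = 0.847), Bmp6 (0.798) and Adamts12 (0.786), and those most like Heph were Il33 (0.681), Prelp (0.681) and Aifm2 (0.68).

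**Figure D3:**
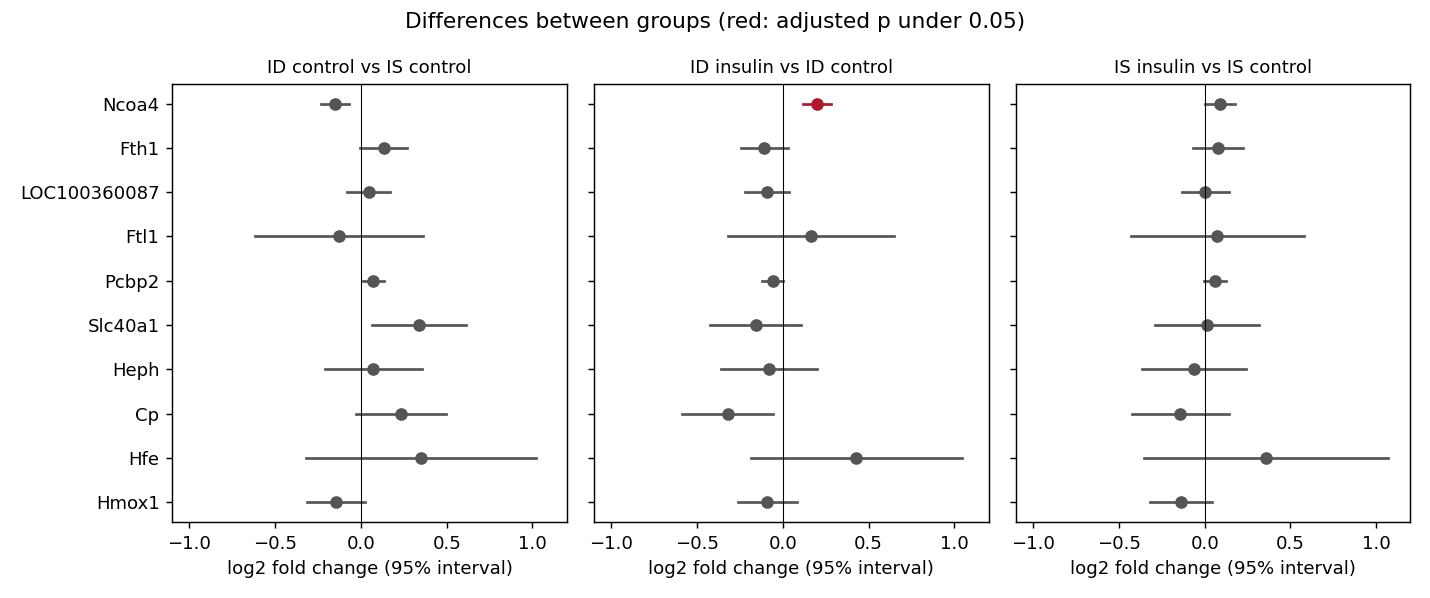
Log2 fold changes (horizontal axes) with 95% intervals of the 9 iron genes and of the row LOC100360087 in ID control against IS control, ID insulin against ID control, and IS insulin against IS control; red marks an adjusted p under 0.05. Ncoa4 in ID insulin against ID control, at 0.20, is the 1 red point, and the intervals are widest for Hfe and the Ftl1 row.

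Hfe (ENSRNOG00000016967), the membrane protein that binds the transferrin receptor and takes part in iron sensing, varied most of the 9 genes, with 22 to 238 reads per library and a coefficient of variation of 48.3%. It stood at 3.01, 7.21 and 9.28 CPM in the lowest, median and highest ID insulin pups and at 2.65, 4.82 and 8.33 CPM in those of ID control. In IS insulin it stood at 1.60, 3.06 and 10.1 CPM, and in IS control at 1.05, 3.06 and 7.17 CPM. Each group spanned low and high pups, and all groups overlapped.

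The widest difference was between ID insulin, at 6.66 ± 2.19 CPM (SD, n = 8), and IS control, at 3.83 ± 1.99 CPM (SD, n = 8). Its log2 fold change was 0.78 (SE 0.32, 95% interval 0.13 to 1.44), and its adjusted p was 0.158 by edgeR. With neighbouring tissue genes as covariates the value was 0.13 (SE 0.22), and that of ID control against IS control was -0.37 (SE 0.17) where it was 0.35 (SE 0.33) without them. Neither was called in either fit.

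Hfe varied closely with the choroid plexus markers of the libraries. Its log2 CPM correlated with the log2 summed CPM of 15 choroid plexus markers at r = 0.899 and rho = 0.929 over 32 libraries after subtracting group means, with an adjusted p of 0.0009 for each by a permutation test, the smallest its 100000 permutations can give. Without the 2 farthest libraries r was 0.878. Within groups r was 0.938 in ID insulin, 0.912 in ID control, 0.945 for IS insulin and 0.846 for IS control, so the relation was present in each.

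The choroid plexus sum had a median of 4177 CPM (range 539 to 7345) in ID insulin, 3131 (1681 to 6830) in ID control, 1440 (237 to 5423) for IS insulin and 614 (201 to 4226) for IS control. Its group order was that of the Hfe means, of which ID control (4.96 ± 1.80 CPM, n = 9) and IS insulin (4.94 ± 3.36 CPM, n = 7; SD in each) lay within their spread. Otx2, a defining choroid plexus factor, was at 0 in every library of ID control and of IS insulin, while the other 14 markers were found in each group. The genes most like Hfe were C1qtnf3 (r = 0.918), Mdk (0.918) and Msx1 (0.915).

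**Figure D4:**
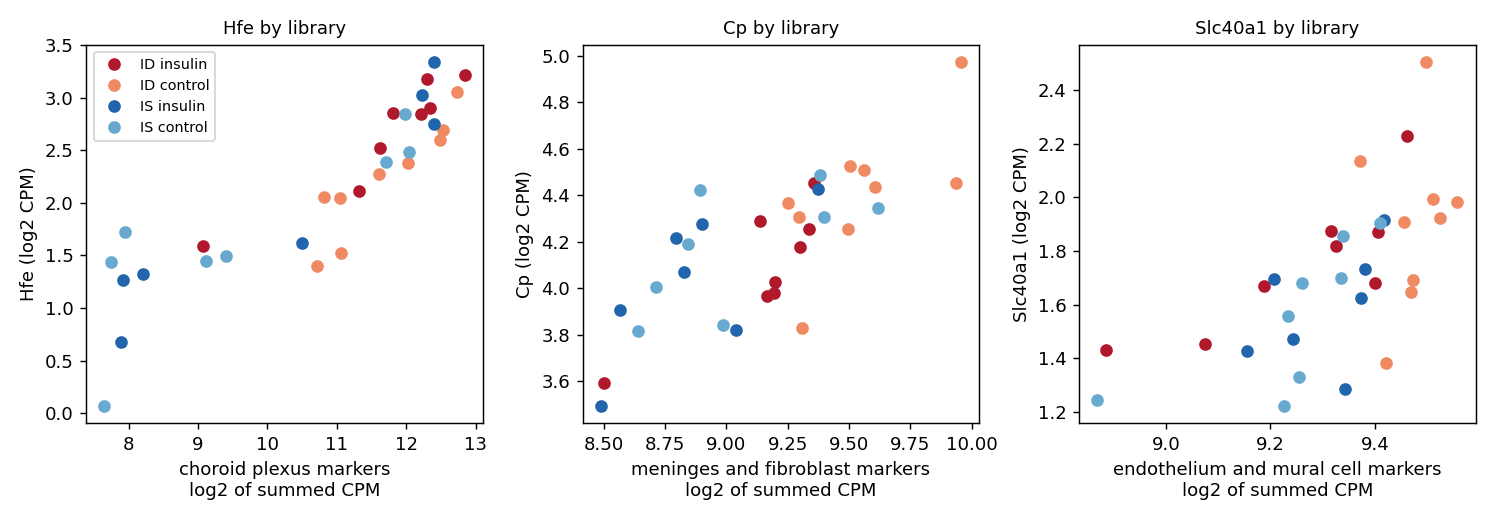
Log2 CPM (vertical axes) of Hfe, Cp and Slc40a1 against the log2 summed CPM of choroid plexus, meninges and fibroblast, and endothelial and mural cell markers (horizontal axes); each point is 1 library, coloured by group. Hfe rises with the choroid plexus markers in all 4 groups (r = 0.899 after subtracting group means), and r is lower for Cp (0.708) and Slc40a1 (0.575).

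These relations belong to a family of 90, of 9 iron genes and LOC100360087 with 9 marker lists, of which 9 had an adjusted p under 0.05. The others among them were Hfe with meninges (r = 0.612, rho = 0.572, adjusted p = 0.0104 for r, permutation test) and LOC100360087 with blood (r = 0.574, rho = 0.559, adjusted p = 0.0374 for r, permutation test). Ncoa4 had no relation with any list that passed, and its lowest adjusted p was 0.201, with microglia, by permutation test. Within groups that r was 0.853 in ID insulin, -0.0245 in ID control, 0.246 for IS insulin and 0.292 for IS control. With endothelial and mural cell markers it was -0.857, -0.0492, -0.761 and 0.731 in the same order. A pooled r can hide relations of opposite sign, and the within-group values of Ncoa4 were not tested. Of 45 pairs of these genes 2 passed: Heph with Cp, and Fth1 with LOC100360087 (r = 0.687, rho = 0.593, adjusted p = 0.0036 for r, permutation test), whose r was 0.485 without the 2 farthest libraries. For Fth1 with Ncoa4, ferritin and its receptor, r was 0.369 (rho 0.288, adjusted p = 0.28 for r, permutation test), which did not pass.

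Hmox1 (ENSRNOG00000014117), the inducible heme oxygenase, had 120 to 236 reads per library. Its lowest, median and highest pups stood at 5.49, 6.46 and 7.85 CPM in ID insulin and at 6.43, 6.88 and 7.58 CPM in ID control. In IS insulin they stood at 5.96, 6.85 and 8.13 CPM, and in IS control at 5.85, 7.59 and 8.90 CPM. IS control was the highest group by its median, and its pups overlapped all others.

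Hmox1 averaged 6.45 ± 0.784 CPM in ID insulin (SD, n = 8) and 7.57 ± 1.11 CPM in IS control (SD, n = 8), a log2 fold change of -0.23 (SE 0.09, 95% interval -0.41 to -0.06). Its unadjusted p was 0.00985 and its adjusted p 0.114 by edgeR, so it was not called. Its log2 fold change was -0.14 in ID control relative to IS control (adjusted p = 0.504, edgeR) and -0.14 in IS insulin relative to IS control (adjusted p = 0.442, edgeR). Neither of these was called.

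The genes most like the remaining members after subtracting group means were Erh (r = 0.803), Tpt1 (0.789) and Rps16 (0.756) for Fth1, and Pbdc1 (0.722), Plac8 (0.714) and Mkrn2 (0.711) for Ncoa4. For Pcbp2 they were Sf3b2 (0.803), Trim28 (0.756) and Ambra1 (0.735). For Hmox1 they were Vsig10l (0.723), Bud13 (0.68) and Slc25a39 (0.67), and for the Ftl1 row Tnfsf12 (0.659), Lsm4 (0.647) and Lrrc61 (0.622). These values describe 32 libraries and carry no test.

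Genes that work beside these were counted against the share of all genes called, which was 0.123% to 3.82% over the 6 comparisons, so that 0 or 1 call in lists of this size is near that background. Of 14 other genes of heme uptake, export and breakdown, which include the constitutive heme oxygenase Hmox2 and the biliverdin reductases Blvra and Blvrb, 0 of 14 were called in any of the 6 comparisons. Of 21 genes of selective autophagy and the lysosome, among them the NCOA4 partners Herc2 and Tax1bp1, 0 were called in any of them, and their median log2 fold change between ID insulin and ID control was -0.01, where that of all genes was 0.00.

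Of 14 tested genes of iron sensing and the hepcidin pathway, which include Aco1 and Ireb2, the iron regulatory proteins that bind ferritin mRNA, 0 were called in any comparison. Of 13 tested NRF2 and BACH1 factors and targets 0 were called in any comparison. Among 6 tested genes of further ferritin, chaperone and export functions 1 was called, in 1 comparison: Pcbp3, a relative of Pcbp2, at 41.6 ± 4.76 CPM in ID insulin (SD, n = 8) and 48.1 ± 4.54 CPM in ID control (SD, n = 9). Its log2 fold change was -0.21 (SE 0.06) with an adjusted p of 0.0488 by edgeR, and 3 of 8 ID insulin pups lay below all ID control pups. The Pcbp3 call was kept in 7 of 32 fits that left out 1 library (adjusted p of 0.0231 to 0.0973, edgeR) and in 6 of 13 other alternatives, with the same sign in all of them. The median log2 fold change of the 9 iron genes between ID insulin and ID control was -0.08, with 3 positive and 6 negative.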

How the data were processed

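RNA was sequenced from 1 hippocampus per pup. The authors deposited 1 table of raw counts of reads per gene for 32 libraries. Per the submitters' processing notes the tools were Trimmomatic 0.40, FastQC, HISAT2 2.1.0, featureCounts and edgeR, and the builds Rnor_6.0 and mm10 are named without a role. Strand use and the treatment of reads that fit several places are not given in the sources used here.

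The counts were analysed in R 4.3.3 with edgeR 4.0.16 (TMM, filterByExpr by group, quasi-likelihood test, two-sided), 1 coefficient per group over all libraries and 28 residual degrees of freedom, with Benjamini-Hochberg adjustment over 15439 genes, checked on simulated data. CPM values use TMM-scaled totals. Counting error is small beside the spread between pups for the deeply covered genes and larger for the Ftl1 row. Correlations used log2 CPM (prior count 2), group means subtracted, and 100000 permutations of libraries within groups. Genes most like a member are the 3 with the highest Pearson correlation. All 10 genes are named whatever their result, and from the pathway lists the called genes. Members and lists were chosen with earlier results of these data known.

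Alternatives were DESeq2 1.42.0, its size factors in edgeR, limma 3.58.1 voom, other count filters and the compared groups alone. Further ones were a replicate block, covariates, ID control title numbers apart, and libraries left out. The voom fit gave each library a quality weight. The earlier quasi-likelihood method was added after the data were seen. A fold change smaller than 1 SE in the fit with all libraries and no covariate was not given. No rat gene coordinates were taken from the table's build, and promoters come from RefSeq GRCr8. Sequences were matched by symbol.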

Additional observations from a re-analysis of the deposited data

Results flagged for a closer look

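Of 40 combinations of gene and group checked for a library far from the others, 2 held one, and chance gives about 1 in 20. Pcbp2 was at 124 CPM in ID control replicate 1, where the other 8 pups of its group lay at 133 to 139 CPM. LOC100360087 was at 167.3 CPM in ID insulin replicate 3, where the other 7 pups lay at 105 to 128 CPM. That library also stood apart from its group over all genes.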

How the results depend on the processing

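Of 1571 recomputed values of 35 fold changes, 1527 kept their direction and their side of the threshold, 34 lost their call, most of them for Pcbp3, 7 gained one and 3 changed sign. The count of iron genes called between ID control and IS control was 1 in place of 0 under DESeq2, limma voom, the second title number as a replicate block and the Y-linked covariate. The gene was Ncoa4, at adjusted p of 0.00676 with the replicate block (log2 fold change -0.22) and 0.0212 to 0.0322 in the other fits. Between ID insulin and ID control the count was 0 in place of 1 with tissue markers as covariates and with ID control title number 70 alone, and 1 in each fit that left out 1 library. The replicate block kept the Ncoa4 call there (0.25, adjusted p = 0.00108, edgeR). Deviations from the group means correlated at a median r of 0.00336 over 40 pairs of libraries with the same second title number in different groups. For 343 pairs of different numbers the median was 0.00381. What this number stands for is not given, and these medians over all genes cannot exclude a shared litter or batch. With tissue markers as covariates, 3 values that were called in neither fit changed sign: Cp in ID control against IS control (-0.027), Hfe in the same comparison (-0.37) and Hfe in ID insulin against IS insulin (-0.00695, SE 0.18). The LOC100360087 row became called lower in ID insulin than in ID control under limma voom (-0.16) and without ID insulin replicate 3, alone (-0.17) or with replicate 5 (-0.19). The count of all genes called between ID insulin and ID control was 589, 323 to 806 with 1 library left out and 10 to 819 over the other alternatives; between ID control and IS control it was 45, 23 to 61 and 17 to 242. In the same order it was 19, 0 to 92 and 0 to 206 between IS insulin and IS control, 517, 240 to 902 and 3 to 855 between ID insulin and IS control, 378, 169 to 751 and 26 to 723 between ID insulin and IS insulin, and 145, 40 to 594 and 9 to 491 for the interaction. The cause of these shifts was not tested. Depth limits the Ftl1 row most, at 8 to 32 reads.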
